A study of Mus musculus with 5 samples.

Results

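Genes for interferon gamma inducible GTPases, 9 in all, were followed in livers of mice that overexpress Fra-1 in hepatocytes: Igtp, Irgm1, Irgm2, Iigp1, Tgtp1, Gbp2, Gbp3, Gbp6 and Gbp7. They were chosen by name, with earlier results of these data known. Every probe whose RefSeq accession belongs to one of them was taken, which gave 12 of 55681 probes and 9 of 19752 named genes on the array. Liver RNA of 4 Fra-1hep mice was labelled with Cy5, and each sample was hybridised on its own 2-colour array against a Cy3-labelled pool of liver RNA from 5 control mice. A 5th array carried the same comparison with the dyes swapped, pooled Fra-1hep RNA being in Cy3 and the control pool in Cy5, and the labels do not say which mice were pooled. Fra-1hep mice are labelled as Fra-1 hep on C57BL/6J with hepatocyte-restricted overexpression of Fra-1, and controls as C57BL/6J wt. The promoter that drives the transgene is not given in the labels. Both groups were aged 26 to 28 weeks and were fed a high-fat diet, 45% of energy from fat, starting at week 4. The control pool is 1 sample, so the tests leave out the spread among control mice. They also treat the 5 arrays as independent, although the Fra-1hep pool may hold RNA of the same 4 mice.

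The members belong to 2 families of GTPases that cells make in quantity when interferon gamma binds its receptor. Immunity-related GTPases (IRGs) load onto membranes around intracellular parasites and bacteria. Within this family the regulators Irgm1, Irgm2 and Igtp, which carry methionine in place of the usual lysine of the nucleotide-binding loop, sit on the cell's own membranes and hold effectors such as Iigp1 and the Tgtp proteins inactive there. Guanylate-binding proteins (GBPs) coat pathogen vacuoles and cytosolic bacteria and help inflammasome caspases to act. In liver, hepatocytes as well as Kupffer cells and endothelial cells respond to interferon gamma, which comes mainly from T cells and natural killer cells.

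The letters upstream of the transcription starts show what the members share at the sequence level. Promoter windows (250 bases before to 50 after each annotated start, RefSeq, GRCm38.p6) were at hand for Igtp, Irgm1, Irgm2, Tgtp1, Gbp2, Gbp3 and Gbp7, 7 of the 9 members, and the 250 upstream bases were searched on both strands. Searched were the gamma-activated site named GAS (TTCNNNGAA), the interferon-stimulated response element named ISRE (GAAA, any 2 bases, GAAA), to which IRF and ISGF3 factors bind, and the AP-1 site (TGANTCA), the motif bound by Fra-1 with a JUN partner. None of these patterns contains another, although neighbouring ISRE matches can overlap. Of 32851 mouse promoter windows, 7.02% held GAS, 2.98% held ISRE and 6.75% held the AP-1 letters. Capitals mark the matches in the stretches below, written 5′ to 3′ on the strand of the gene. Igtp, Irgm2 and Tgtp1 come first because they carry GAS and ISRE side by side.
Igtp, chr11:58199501-58199541, plus strand: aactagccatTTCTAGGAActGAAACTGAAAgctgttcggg
Irgm2, chr11:58214892-58214932, plus strand: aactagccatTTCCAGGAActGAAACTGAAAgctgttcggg
Tgtp1, chr11:48992304-48992344, minus strand: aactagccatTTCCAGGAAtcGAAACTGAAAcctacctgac
Irgm1, chr11:48871425-48871545, minus strand: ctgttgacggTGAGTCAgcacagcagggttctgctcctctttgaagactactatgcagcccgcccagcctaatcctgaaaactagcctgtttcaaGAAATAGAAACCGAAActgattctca
Gbp2, chr3:142620551-142620623, plus strand: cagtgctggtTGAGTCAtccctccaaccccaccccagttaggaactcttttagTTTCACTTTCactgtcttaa
Gbp3, chr3:142559989-142560024, plus strand: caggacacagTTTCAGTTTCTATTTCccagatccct
Gbp7, chr3:142530220-142530302, plus strand: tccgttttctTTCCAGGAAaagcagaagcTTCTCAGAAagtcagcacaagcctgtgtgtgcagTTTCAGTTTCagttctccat

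Every one of the 7 genes had an ISRE match within 77 bases of a start, and 4 of them, Igtp, Irgm2, Tgtp1 and Gbp7, also had GAS in the same window. That pair occurred together in 109 windows, 0.332% of all. In Igtp, Irgm2 and Tgtp1 the ISRE began exactly 11 bases after the first base of GAS on the gene's strand. The same spacing, looked for after it was seen in these members, was found in 5 windows (0.0152%), those of Igtp, Irgm2, Tgtp1, Tgtp2 and Gm12185. Over the 41 bases shown, Igtp and Irgm2 were identical at 40, Irgm2 and Tgtp1 at 32 and Igtp and Tgtp1 at 31. Gbp3 has 2 annotated starts, and the window of its other start held none of the 3 motifs. The AP-1 letters stood in the windows of Irgm1 and Gbp2, 2 of the 7 genes. A match describes the letters and is no evidence of binding in these livers.

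**Figure D1:**
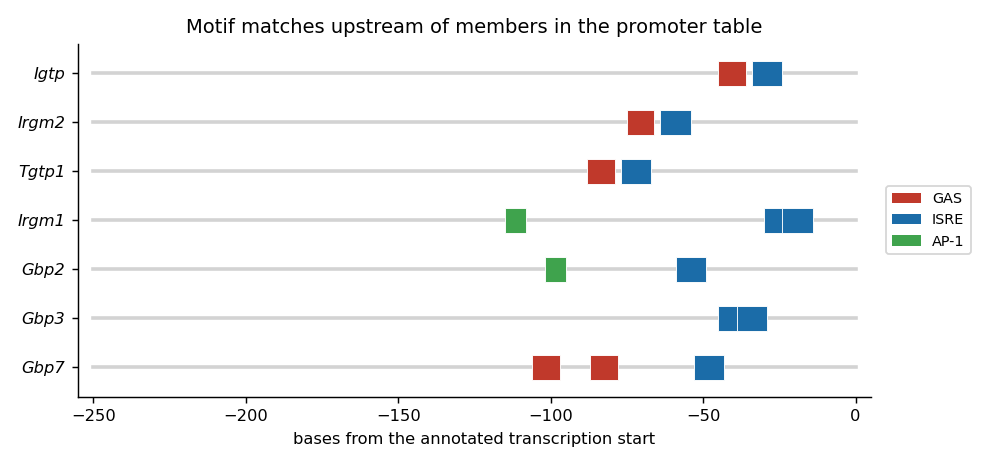
Positions of GAS, ISRE and AP-1 matches (coloured boxes, drawn to their length) in the 250 bases before the annotated transcription start of 7 members; the axis gives bases from the start. ISRE boxes lie nearest the start in every gene, and in Igtp, Irgm2 and Tgtp1 a GAS box precedes the ISRE at the same spacing.

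Transcripts of 8 of the 9 GTPases were lower in Fra-1hep livers than in control livers, none was higher, and Tgtp1 did not pass the test. The genes with the largest falls were Igtp, 2.28-fold lower, and Gbp2, 2.06-fold lower. Gbp7 fell least of the genes that passed, by 1.31-fold. All values are log2 ratios of Fra-1hep over control from limma, given as the genotype coefficient ± its standard error (SE) over 4 mice and the dye-swapped array, with Benjamini-Hochberg adjustment over 21494 features and a threshold of 0.05. Lower calls made up 15.4% of these features and higher calls 11.2% (26.6% together), or 18.5% and 12% of the 13524 named genes among them. Shares of all features, here and below, are given for scale only, since the members were chosen with earlier results of these data known. The median over the 9 members was -0.73. These are whole-liver extracts, in which fewer cells of a type and less RNA per cell cannot be told apart.

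The members' average was much alike on every array. Averaged over the 9 members, the log2 ratio was -0.73, -0.70, -0.82 and -0.81 in mice 1 to 4 and -0.75 on the dye-swapped array, beside medians of all features between -0.02 and 0.01. All 60 single ratios of the 12 member probes on 5 arrays lay below 0. For comparison, 18.3% of all kept probes and 19.5% of all features were below 0 on all 5 arrays. All 12 member probes were well above background in both channels of all 5 arrays, so that none of the 9 members was lost to the filter on dim probes.

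**Figure D2:**
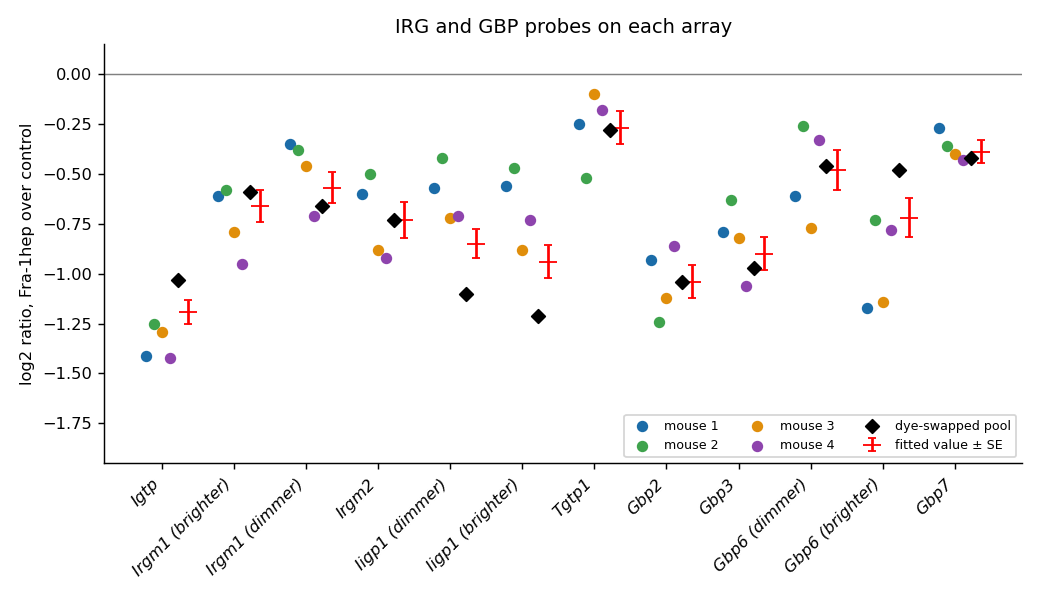
Log2 ratio of Fra-1hep over control for the 12 member probes (vertical axis) on each array, with circles for mice 1 to 4, diamonds for the dye-swapped pool and red bars for the fitted value ± SE; brighter and dimmer tell apart 2 probes of 1 gene. All 60 points lie below 0, and those of Tgtp1 lie nearest to it.

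Among the IRG regulators, Igtp (also known as Irgm3), which sits on the endoplasmic reticulum and lipid droplets, changed most. Its log2 ratios were -1.41, -1.25, -1.29 and -1.42 in mice 1 to 4 and -1.03 on the dye-swapped array. The mice lay close together, and the pooled array showed the smallest difference. The fitted value was -1.19 ± 0.0595 (adjusted p = 5.52e-05), and 0.721% of features fell by more. The probe (A_51_P112355, NM_018738) was printed 10 times on each array, so its technical spread could be read directly. Single spots ran from -1.52 to -1.31 in mouse 1 and from -1.13 to -0.90 on the dye-swapped array, with an SD over spots of 0.024 to 0.085. The SD between the 4 mice was 0.09. Each mouse's value is a mean of 10 spots, and such means vary less than single spots, so this SD is not directly comparable with the SD over spots. Mean log2 signals were 12.55 in the control channel and 11.27 in the Fra-1hep channel.

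Irgm1, found on Golgi, mitochondrial and lysosomal membranes and tied to autophagy, was read by 2 probes. The brighter one (A_51_P262171, NM_008326) gave -0.61, -0.58, -0.79 and -0.95 in mice 1 to 4 and -0.59 on the dye-swapped array. Mouse 4 was lowest, while mice 1 and 2 and the pool were nearly alike. The fit gave -0.66 ± 0.0809 (adjusted p = 0.00197), a 1.58-fold lower level. The dimmer probe (A_55_P1981479) gave -0.35, -0.38, -0.46 and -0.71 in the mice and -0.66 on the dye-swapped array, and a coefficient of -0.57 ± 0.0784 in the fit over all 28049 kept probes (adjusted p = 0.00283). Both probes therefore had the same direction and the same lowest mouse. Lower calls made up 14.4% of probes in that fit.

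Irgm2, a Golgi-resident regulator, had 1 probe (A_55_P2137611, NM_019440). Its log2 ratios were -0.60, -0.50, -0.88 and -0.92 in mice 1 to 4 and -0.73 on the dye-swapped array. Mice 3 and 4 were lower than mice 1 and 2, as for Irgm1, and the pool lay between them. The fitted value was -0.73 ± 0.0907 (adjusted p = 0.00216, 1.65-fold lower).

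Of the IRG effectors, Iigp1 (Irga6), which coats the vacuole of Toxoplasma, had 2 probes of the same accession, NM_001146275. The brighter one (A_55_P2410304) gave -0.56, -0.47, -0.88 and -0.73 in the mice and -1.21 on the dye-swapped array. The dimmer one (A_55_P1990633) gave -0.57, -0.42, -0.72 and -0.71 in the mice and -1.10 on that array. On both probes the pool was lower than every single mouse, and mouse 2 was nearest to 0. The fitted values were -0.94 ± 0.0838 for the brighter probe (adjusted p = 0.000557, 1.91-fold lower) and -0.85 ± 0.073 for the dimmer one (adjusted p = 0.000395 in the fit over probes). For the brighter probe the mean of the 4 mice was -0.66 ± 0.18 (SD), and the dye term of the fit, which cannot be told apart from a deviation of the pooled array, took 0.28.

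Tgtp1 (Irgb6), another effector that loads onto parasite vacuoles, was the member that did not pass. Its single probe (A_51_P478722, NM_011579) gave -0.25, -0.52, -0.10 and -0.18 in mice 1 to 4 and -0.28 on the dye-swapped array. All 5 values were below 0, but mouse 2 was far lower than mouse 3. The fit gave -0.27 ± 0.083 with an adjusted p of 0.0513 and a 95% confidence interval from -0.46 to -0.08. The probe was dim, with mean log2 signals of 6.92 in the control and 6.66 in the Fra-1hep channel, and its value moved with the background correction. With an offset of 0 it was -0.54 (adjusted p = 0.0845), with Agilent's processed signals it was -0.96 (adjusted p = 0.0155), and without mouse 2 it was -0.23 (adjusted p = 0.0401). Whether Tgtp1 passed thus depended on the processing, while its direction did not.

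Tgtp2, the tandem copy of Tgtp1 with a nearly identical protein, is no member but bears on that value. Its bright probe (A_55_P2062246) gave -1.35, -1.68, -1.68 and -1.18 in mice 1 to 4 and -1.26 on the dye-swapped array. All 5 arrays showed a fall, with a fitted value of -1.36 ± 0.104 (adjusted p = 0.000298, 2.57-fold lower). Its dim probe (A_55_P1989225), well above background on 2 of 5 arrays in each channel, gave -0.15 ± 0.0842 (adjusted p = 0.225 in the fit over probes). How far the probes of Tgtp1 and Tgtp2 each bind both transcripts was not tested.

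Gbp2, which is recruited to Toxoplasma vacuoles and to bacteria that escape into the cytosol, fell most of the GBP members. Its probe (A_51_P203955, NM_010260) gave -0.93, -1.24, -1.12 and -0.86 in mice 1 to 4 and -1.04 on the dye-swapped array. Here mouse 2 was lowest and mouse 4 highest, unlike the order seen for the IRG regulators. The fit gave -1.04 ± 0.0812 (adjusted p = 0.000333), and the mean of the mice was the same, -1.04 ± 0.17 (SD, n = 4).

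Gbp3, which lies in the same cluster as Gbp2 on chromosome 3, had 1 probe (A_55_P2472435, NM_018734). The log2 ratios were -0.79, -0.63, -0.82 and -1.06 in the mice and -0.97 on the dye-swapped array. Mouse 4 was lowest and mouse 2 nearest to 0. The fitted value was -0.90 ± 0.0829 (adjusted p = 0.000618, 1.87-fold lower).

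Gbp7, of the same cluster and linked to assembly of the phagocyte NADPH oxidase, changed less and varied little. Its probe (A_51_P463846, NM_145545) gave -0.27, -0.36, -0.40 and -0.43 in mice 1 to 4 and -0.42 on the dye-swapped array. All 5 arrays fell within a narrow range. The fit gave -0.39 ± 0.057 (adjusted p = 0.00385). Against a minimum change of 1.2-fold in place of 0, the adjusted p was 0.307, so the fall was not shown to exceed that size.

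Gbp6, from the GBP cluster on chromosome 5, was read by 2 probes of accession NM_194336. The brighter one (A_55_P2052385) gave -1.17, -0.73, -1.14 and -0.78 in mice 1 to 4 and -0.48 on the dye-swapped array. The dimmer one (A_55_P2052380) gave -0.61, -0.26, -0.77 and -0.33 in the mice and -0.46 on that array. Mice 1 and 3 were lower than mice 2 and 4 on both probes, and the pool was nearest to 0 on the brighter one only. Fitted values were -0.72 ± 0.0988 for the brighter probe (adjusted p = 0.00318, 1.64-fold lower) and -0.48 ± 0.0994 for the dimmer one (adjusted p = 0.0138 in the fit over probes).

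The signals of the separate channels gave the same picture as the ratios from which they derive. For each of the 12 probes, every Fra-1hep level lay below every control level over the 5 arrays, which held for 8.26% of all kept probes. For Gbp2 the Fra-1hep channel ran from 8.92 to 9.18 and the control channel from 9.88 to 10.17 on the log2 scale. For the dimmer Iigp1 probe the ranges were 9.95 to 10.60 and 10.80 to 11.17. The smallest gap was that of Tgtp1, with Fra-1hep levels up to 6.77 and control levels from 6.81. The control channel holds the same pool 5 times, so its range is technical.

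**Figure D3:**
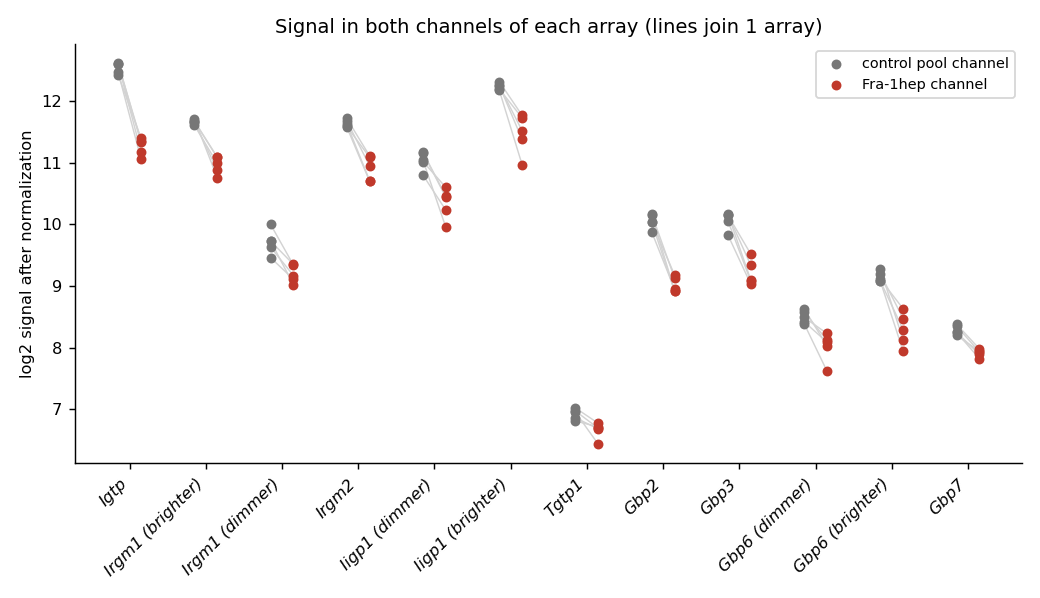
Normalized log2 signal of the 12 member probes (vertical axis) in the control pool channel (grey) and the Fra-1hep channel (red) of each of the 5 arrays, with lines joining the channels of 1 array. Red points lie below the grey points for every probe, with the smallest gap for Tgtp1, and heights are not comparable between probes.

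In order of their fitted ratios the members ran from Igtp at -1.19 through Gbp2, Iigp1, Gbp3, Irgm2, Gbp6 and Irgm1 to Gbp7 at -0.39 and Tgtp1 at -0.27. The ranges of fitted value ± SE overlapped between neighbours from Gbp2 through Irgm1 and between Gbp7 and Tgtp1, and did not overlap between Igtp and Gbp2 or between Irgm1 and Gbp7. No difference between members was tested. The root mean square distance of a member's 5 ratios from the members' mean profile was smallest for Irgm2, at 0.118, and Irgm1, at 0.121, and largest for Igtp, at 0.535, and Tgtp1, at 0.531. By the same measure, the 5 nearest of 13122 other named genes to that mean profile included Col14a1 (0.0684), a collagen, Lgals3bp (0.0849) and H2-DMa (0.0954), a class II peptide-loading gene. Their fitted ratios lay between -0.75 and -0.73.

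Other genes of the IRG, GBP and very large GTPase (Gvin) families moved the same way, with exceptions. Of the listed genes outside the members, 13 were tested: 9 fell, none rose and 4 missed the threshold, with a median of -0.42. Gm12250 (Irgb10), an IRG gene that the list did not hold, also fell, to -0.56 ± 0.0736 (adjusted p = 0.00252). Gvin1, a very large interferon-inducible GTPase, gave -1.06, -0.88, -1.24 and -1.48 in mice 1 to 4 and -1.40 on the dye-swapped array. The fit gave -1.28 ± 0.107 (adjusted p = 0.00042), and its dimmer probe gave -1.40 ± 0.0909. Gbp5, which works with Gbp2 in inflammasome activation, was lower by -0.81 ± 0.0649 on the log2 scale (adjusted p = 0.000356). Gm4951, an IRG gene, was at -0.85 ± 0.0753 and Gbp4 at -0.71 ± 0.0672. F830016B08Rik, Gbp9, Gbp2b and 9930111J21Rik1 also passed, with fitted values of -0.56, -0.42, -0.34 and -0.30.

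Some of those calls rested on few arrays or probes. F830016B08Rik had a mean of -0.34 ± 0.20 (SD, n = 4) in the mice and -0.78 on the dye-swapped array. For 9930111J21Rik1 the mice gave 0.08, -0.12, -0.04 and -0.30, and the dye-swapped array gave -0.49, so the fall came mainly from the pooled array. Its other probe gave 0.03 ± 0.0664 in the fit over probes. The dimmer Gbp2b probe gave -0.16 ± 0.0677 (adjusted p = 0.126). Irgc1 and 9930111J21Rik2 were not well above background on any array and were not tested.

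**Figure D4:**
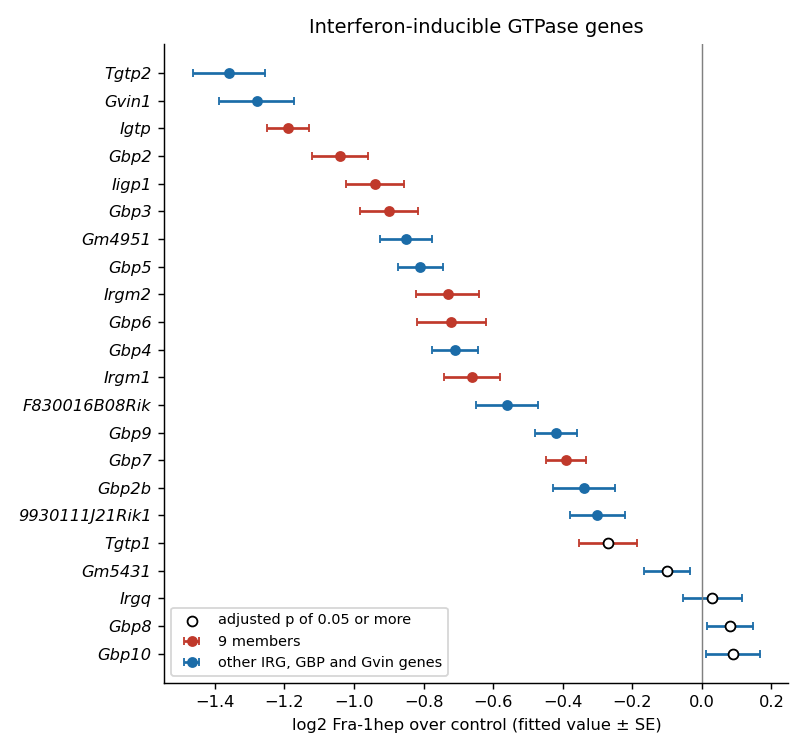
Fitted log2 ratio of Fra-1hep over control ± SE (horizontal axis) for the 9 members (red) and 13 other listed IRG, GBP and Gvin genes (blue); open circles mark an adjusted p of 0.05 or more. Values run from -1.36 for Tgtp2 to 0.09 for Gbp10, and the 5 open circles are Tgtp1, Gm5431, Irgq, Gbp8 and Gbp10.

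The families lie in clusters, and neighbours within a cluster did not all change by the same amount. On chromosome 5 the order is Gbp8, Gbp9, Gbp4, Gbp10 and Gbp6. Gbp8 gave 0.11, 0.11, -0.10 and 0.15 in mice 1 to 4 and 0.09 on the dye-swapped array, with a fitted value of 0.08 ± 0.0659 (adjusted p = 0.421). Gbp10 gave -0.07, -0.02, -0.24 and 0.15 in the mice and 0.22 on that array, with 0.09 ± 0.0775 (adjusted p = 0.443). Values of both genes scattered around 0, whereas Gbp9, Gbp4 and Gbp6 around them fell. No listed IRG, GBP or Gvin gene was called higher under any of the alternatives tried.

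On chromosome 3 the order is Gbp5, Gbp7, Gbp3, Gbp2b and Gbp2, and all 5 fell, with fitted values of -0.81, -0.39, -0.90, -0.34 and -1.04. The next gene beyond Gbp2 is Kyat3, a kynurenine aminotransferase, named here after its values were seen. It gave -3.38, -2.67, -2.59 and -4.26 in mice 1 to 4 and -3.22 on the dye-swapped array. On this brighter probe the fall was larger than that of any GTPase on every array, at -3.22 ± 0.288 (adjusted p = 0.000557). The dimmer Kyat3 probe gave -1.77 ± 0.0768, with -1.59 and -1.41 in mice 2 and 3. In those mice Tgtp2 was lower, at -1.68 in each. On chromosome 11, Gm12250, Igtp and Irgm2 lie side by side, at -0.56, -1.19 and -0.73. The other cluster of that chromosome starts with Irgm1 and Gm5431, where Gm5431 gave -0.10 ± 0.0652 (adjusted p = 0.305), and ends with Tgtp2. Trim7, on the other side of Irgm1, was higher by 0.55 ± 0.0718 (adjusted p = 0.00261).

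Upstream of the GTPases, the ligand list held few calls, and of its 13 genes only 8 were tested. Of 8 interferon and inducer genes tested, 0 fell and 1 rose, with a median of 0.04. The call was Il27, a cytokine subunit, at 0.18 ± 0.0548 (adjusted p = 0.0471), which rested on 1 array. The mice gave -0.10, 0.00, -0.09 and 0.01 and the dye-swapped array 0.41, and without that array no gene of the list was higher. Ebi3, its partner subunit, came nearest to a fall, at -0.46 ± 0.14 (adjusted p = 0.051). Ifng itself, named for its place in the pathway, gave -0.16, -0.10, -0.15 and -0.06 in mice 1 to 4 and -0.02 on the dye-swapped array. Its signal cleared the background in the Fra-1hep channel on 1 array and in the control channel on 4, so its level was barely measurable. The fit gave -0.07 ± 0.0533 (adjusted p = 0.372). Ifna1 and Ifna2 were also dim, above background in 4 and 2 Fra-1hep channels and in 2 and 3 control channels.

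Among receptors, kinases and transcription factors of interferon signalling, 10 of 22 fell and 2 rose, with a median of -0.19. Irf2, an IRF that competes with Irf1 at response elements, had the lowest value of the list, -0.84 ± 0.0592 (adjusted p = 0.000207). Il10rb, a shared receptor chain, was at -0.53 ± 0.067, the AP-1 family member Batf2 at -0.52 ± 0.0738 and Irf8 at -0.47 ± 0.0715. For Irf8 the mice lay between -0.34 and -0.07 and the dye-swapped array at -0.74, so most of that value came from the pooled array. The receptor genes Ifngr1 and Ifngr2, named for their place in the pathway, were at -0.23 ± 0.0615 and -0.31 ± 0.0839 (adjusted p = 0.0315 and 0.0359). Ifngr1 lay between -0.17 and 0.04 in the mice and at -0.36 on the dye-swapped array. The 2 higher calls, Irf3 at 0.23 and Irf5 at 0.27, also leaned on that array, which gave 0.41 and 0.43. The mice gave 0.10, 0.06, 0.07 and -0.03 for Irf3 and 0.36, 0.17, -0.04 and 0.00 for Irf5, and neither was called higher without the dye-swapped array.

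Irf1, an activator of GBP genes that interferon gamma induces early, gave -0.13, 0.11, -0.37 and -0.23 in the mice and -0.14 on the dye-swapped array. Mouse 2 stood on the other side of 0, and the fit gave -0.15 ± 0.0898 (adjusted p = 0.266). Of the feedback inhibitors, 4 of 8 fell and 0 rose, led by Socs1 at -0.45 ± 0.0538 (adjusted p = 0.00178) and Usp18 at -0.75 ± 0.115 (adjusted p = 0.00476).

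Other genes induced by interferons were lower as well. Of 13 chemokine and effector genes of the interferon gamma response, 10 fell and 0 rose, with a median of -0.59. Ccl5, Cxcl10 and Cxcl9, which attract T cells, were at -1.87 ± 0.17, -1.42 ± 0.155 and -1.60 ± 0.212, and the nucleotide hydrolase Samhd1 at -0.61 ± 0.0616. Of 18 antigen presentation genes, 12 fell and 0 rose, with a median of -0.30. The largest falls there were in class II genes, with H2-Aa at -1.11 ± 0.132, H2-DMb1 at -1.02 ± 0.0869, H2-Eb1 at -1.01 ± 0.0956, H2-Ab1 at -1.01 ± 0.105 and the invariant chain Cd74 at -0.99 ± 0.0882. Class I genes were mixed. H2-K1 (-0.37), B2m (-0.35), Psmb10 (-0.34), Erap1 (-0.27), Psme2 (-0.24) and Tap2 (-0.22) passed as lower, whereas H2-D1 (-0.18), Psmb8 (-0.08), Psmb9 (-0.03), Tap1 (0.07), Tapbp (-0.04) and Psme1 (-0.02) did not pass. The falls of H2-K1, B2m and Erap1 were larger on the dye-swapped array, at -0.63, -0.54 and -0.45, than in any mouse, and mouse 2 gave 0.06 for H2-K1.

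Genes of the type I interferon response, which share ISRE-driven control as textbook background, fell in 21 of 29 cases. Ifi27 alone rose, by 0.57 ± 0.11 (adjusted p = 0.0109), and the median was -0.47. Ifi44 was at -1.06 ± 0.0902, Oasl2 at -0.87 ± 0.097, Ifit2 at -0.66 ± 0.0646 and Bst2, which tethers virions, at -0.56 ± 0.0565. In the autophagy and inflammasome genes that act with these GTPases, 6 of 20 fell and 1 rose, with a median of -0.13. Casp4 (caspase-11), Pycard and Casp1 were at -0.60 ± 0.0865, -0.59 ± 0.0922 and -0.57 ± 0.109, whereas Gsdmd, the pore former that these caspases cleave, was higher by 0.41 ± 0.0547 (adjusted p = 0.00274). Gsdmd gave 0.19 to 0.33 in the mice and 0.56 on the dye-swapped array, and Casp4 -1.10 to -0.70 and -0.25. Of the autophagy genes, Gabarapl1 (-0.34, adjusted p = 0.0227) and Atg5 (-0.24, adjusted p = 0.0248) also fell, as did the ubiquitin ligase Trim21 (-0.27). Gabarapl1 gave -0.10, -0.09, -0.46 and -0.13 in mice 1 to 4 and -0.49 on the dye-swapped array. Its value thus leaned on that array and mouse 3. Atg7, Atg3, Atg16l1 and Becn1 did not pass, with values between -0.14 and 0.08.

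**Figure D5:**
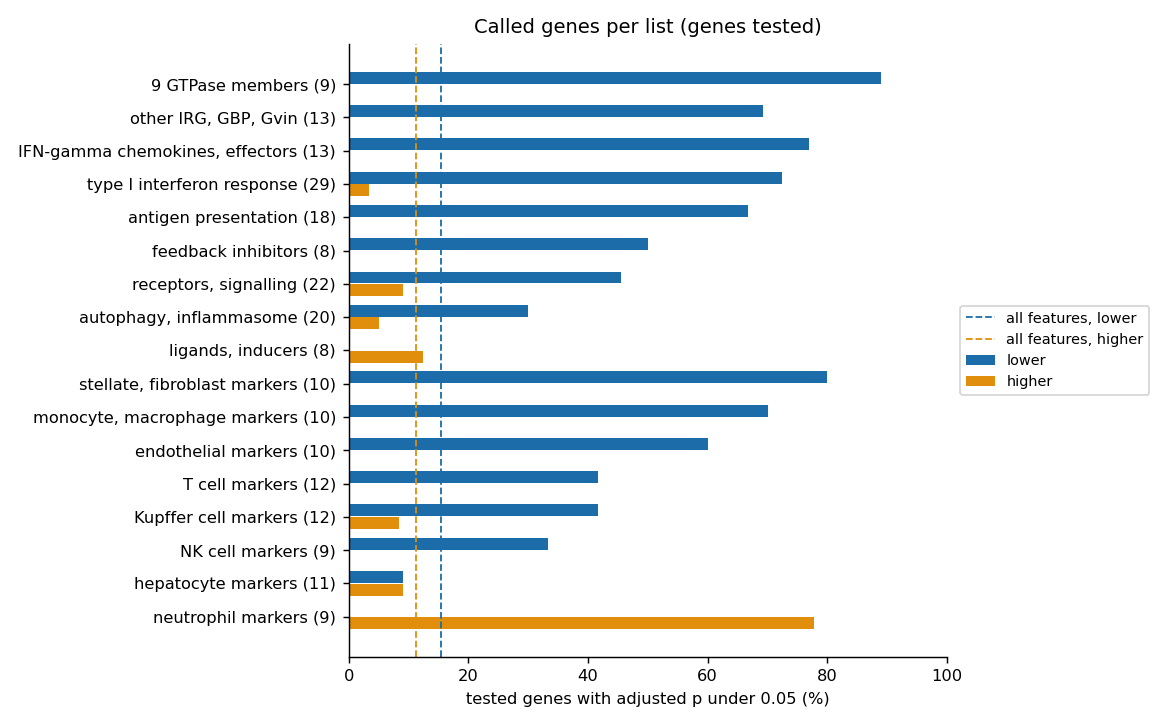
Share of tested genes per list (percent, horizontal axis) with an adjusted p under 0.05, lower in blue and higher in orange, with the number tested in brackets. Dashed lines give the shares of all 21494 features, 15.4% lower and 11.2% higher. Lists with fewer than 8 tested genes are not drawn, and neither is the list of AP-1 genes, of which 7 of 11 fell and 0 rose. Among the lists drawn, the bars for lower genes are longest for the 9 members, the stellate cell markers and the chemokines and effectors, and the longest bar for higher genes is that of the neutrophil markers.

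Markers of other liver cell types changed as well. Of T cell markers 5 of 12 fell and of NK cell markers 3 of 9. Of dendritic cell markers 2 of 6 fell and of B cell markers 1 of 4. Of monocyte and macrophage markers 7 of 10 fell, of endothelial markers 6 of 10, and of stellate cell and fibroblast markers 8 of 10. None of these lists held a gene called higher in the main fit. The monocyte and macrophage count includes Itgam, at -0.22, whose call came from the pooled array. Itgam gave 0.22, 0.10, 0.13 and 0.05 in mice 1 to 4 and -0.57 on the dye-swapped array. Without that array, 1 monocyte and macrophage marker and 1 endothelial marker were called higher. Kupffer cell markers had a median of -0.56, with 5 of 12 lower, Cd5l (-1.0), Adgre1 (-0.82), C1qb (-0.70), C1qa (-0.61) and C1qc (-0.57), while Clec4f, Vsig4 and Timd4 lay at 0.07, 0.05 and 0.13 without passing. Cd163 was higher by 0.29, but it cleared the background in 0 control channels. It was not called with processed signals, offset 0, median centring, an assumed spread of control mice added, or either of mice 3 and 4 left out. Neutrophil markers went the other way, with 7 of 9 higher, 0 lower and a median of 2.17. Of hepatocyte markers 1 of 11 fell and 1 rose, and 11 of the 12 listed were measured, so the labelled tissue's own markers were present. Those counts depended on the dye-swapped array, without which 7 were higher and 0 lower. Ttr, for example, ran from 0.79 to 0.94 in the mice and was -0.58 on that array. The 5 cholangiocyte markers tested gave no call in limma (lowest adjusted p = 0.126, for Krt19), both adipocyte markers tested fell, and the 3 exocrine pancreas markers tested rose.

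Signals were also summed over each list on the linear scale, where bright probes weigh most, and the sums were turned into log2. The log2 sums of the stellate cell markers ran from 14.02 to 14.41 in the Fra-1hep channels and from 15.13 to 15.48 in the control channels. Those of endothelial markers ran from 13.82 to 14.29 and from 14.39 to 14.50, and those of NK cell markers from 10.83 to 11.05 and from 11.08 to 11.19. For T cell markers, 12.30 to 12.97 and 12.24 to 13.01, Kupffer cell markers, 14.79 to 16.02 and 15.85 to 16.19, and monocyte and macrophage markers, 13.27 to 13.86 and 13.70 to 13.90, the ranges of the channels overlapped. For neutrophil markers the Fra-1hep channels were higher, at 14.29 to 15.84 beside 12.41 to 12.58. Among defining markers, Ncr1, Klrb1c and Klrk1 of NK cells, Ly6g of neutrophils and Xcr1 and Zbtb46 of dendritic cells had no kept probe. Dim probes and genes without a named probe were not told apart here. The part of these cell types in the fall of the GTPases was not tested.

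Over the whole series, 47.2% to 54.7% of spots were well above background in Cy5 and 47.7% to 61.5% in Cy3. Mouse 1 was alone on its slide, and mice 2 to 4 and the dye-swapped array shared another. Without mouse 1, which is also the fit with slide as a block, 8 of the 9 members remained called lower. The probe for Fosl1, the gene of Fra-1, was well above background in 0 Fra-1hep channels and 1 control channel, so it does not serve as a check of the labels.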

How the data were processed

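Liver RNA (integrity above 7.8, 100 ng labelled, per the labels' protocols) was measured on 5 Agilent 2-colour arrays. The authors deposited spot intensity values extracted with Agilent Feature Extraction (10.7 per the submitters' processing notes, 10.7.3.1 per the file headers), which per the file headers include median signals, local backgrounds, dye-normalized processed signals, the log10 of Cy5 over Cy3, and quality flags. The deposited series table is in log2 units. Regressed on the scanner files' ratios (23068 probes), each mouse's column gave a slope of 1 and the dye-swapped one -1, so its sign is Fra-1hep over control. Its columns had medians of 0.13, 0.08, 0.04, 0.13 and -0.04, and were not centred, and how they were made is otherwise not stated.

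Here the median signals underwent normexp correction (local backgrounds, offset 50) and loess normalization within arrays, with 189 outlier spots of 62976 spots per array left out over the 5 arrays and 0 saturated. Spots of 1 probe were averaged. Accessions, without version, named 26056 of 55681 probes through a RefSeq table (GRCm38.p6), used for names and gene order only since the labels and headers name no build. Kept were 28049 probes that cleared the background flag of either channel on 3 or more arrays, and the brightest stood for its gene. Ratios were fitted with limma's lmFit and eBayes (limma 3.58.1 in R 4.3.3), the model holding a genotype coefficient and a dye intercept. The dye-swapped array weighs as much as the 4 mice together, and the spread comes from the mice alone (3 residual and 4.02 prior degrees of freedom). The number of arrays limits the precision (median SE of 0.066). Channel levels were taken after loess and Aquantile. The code of the fit was run on data simulated from the same model with independent normal errors, which does not test the model's assumptions on these arrays. Members, gene lists and the naming rule were chosen with earlier results of these data known. Named were all members, all measured genes of their families, of other lists up to 4 genes with the smallest p, and 5 genes of most similar pattern; further genes (Ifng, Irf1, Irf3, Irf5, Ifngr1, Ifngr2, Kyat3, cluster neighbours, further listed genes and genes that did not pass) were named after their values were seen. Some genes that the rule takes are not reported here. Alternatives covered the dye term, the dye-swapped array, background, scaling, filters, probe choice, weights, control spread, minimum change, slide and each mouse. No control mouse was measured singly. The control spread was therefore assumed, as the residual variance of the fit divided by the 5 mice of the pool.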

Additional observations from a re-analysis of the deposited data

How the results depend on the processing

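Across 17 alternatives no member changed direction, and Igtp, Irgm1, Irgm2, Iigp1, Gbp2, Gbp3 and Gbp6 stayed past the threshold in all of them. Fitted ratios ranged from -1.34 to -1.17 for Igtp, -0.73 to -0.62 for Irgm1, -0.76 to -0.69 for Irgm2, -0.97 to -0.66 for Iigp1, -1.11 to -1.01 for Gbp2, -1.03 to -0.83 for Gbp3, -0.95 to -0.60 for Gbp6 and -0.47 to -0.37 for Gbp7. Tgtp1 ranged from -0.96 to -0.23 and passed in 6 alternatives. The number of members called lower was 7 with a minimum change of 1.2-fold and 8 or 9 otherwise, and 0 were higher.

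Counts over all features moved by more than 1.5 times with a minimum change of 1.2-fold (719 lower, 332 higher), with the assumed spread of 5 control mice added (1761 and 1085), with median centring (1406 higher) and without the dye-swapped array (3641 higher). List counts moved as follows, and the cause was not tested beyond the stricter null and larger error of those alternatives. With a minimum change of 1.2-fold, lower calls were 5 in the other GTPases, 5 in the chemokines and effectors, 6 in antigen presentation, 7 in the type I response, 1 each in receptors and signalling, feedback inhibitors, dendritic and endothelial markers, and 0 in T, NK, B and Kupffer cell, hepatocyte and autophagy lists; higher calls were 0 in the Kupffer, hepatocyte, autophagy, receptor, type I and ligand lists. With the spread of 5 control mice, lower calls were 3 in the Kupffer, autophagy and endothelial lists, 6 in receptors, 1 in dendritic and 0 in hepatocyte and B cell lists, and higher calls 0 in Kupffer, hepatocyte, receptor and ligand lists. Without the dye intercept, lower calls were 4 in dendritic, 6 in NK cell, 1 in ligand and 0 in hepatocyte lists, and higher calls 2 in hepatocyte and autophagy and 0 in receptor and ligand lists. Without the dye-swapped array, lower calls were 6 in NK cell, 1 in ligand and 0 in hepatocyte lists, and higher calls 7 in hepatocyte, 2 in autophagy, 1 each in monocyte, endothelial and feedback lists and 0 in receptor and ligand lists. With processed signals or the deposited table, lower calls were 6 in receptors and 0 in hepatocyte and B cell lists, and higher calls 0 in Kupffer and receptor lists. With offset 0, lower calls were 0 in hepatocyte and B cell lists, and higher calls 1 in receptors and 0 in Kupffer and ligand lists. With median centring or no filter, lower calls were 1 in ligands and higher calls 0 in ligands; higher calls in receptors were 0 and 1, and median centring left 0 in Kupffer. Array weights gave 1 lower call in ligands, probes above background in both channels 0 higher calls in Kupffer, and the mean of probes 0 lower calls in hepatocyte markers. Slide as a block gave 0 lower calls in hepatocyte markers and 0 higher calls in ligands.

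Leaving out each mouse in turn gave 8 to 9 members called lower. Kupffer lower calls ran from 5 to 8 (8 without mouse 2), hepatocyte, B cell and ligand lower calls from 0 to 1, hepatocyte and receptor higher calls from 0 to 2, Kupffer higher calls from 0 to 1, and ligand higher calls were 0. No paired analysis was possible because each ratio already sets a mouse against the shared pool and only replicate number 1 occurs in both sample groups.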

Other observations

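Among 25 IRG and GBP probes, no mouse stood far enough from the other 3 to pass Dixon's 95% critical value. The highest ratio of gap to range, 0.812, was that of Gbp8, where mouse 3 lay at -0.10 and the other mice between 0.11 and 0.15.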
